A study of Arabidopsis thaliana with 6 samples.

Results

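Membrane trafficking genes were followed in whole Arabidopsis seedlings, 5 days old, grown in the light. Wild type plants of the Nossen accession (No-0) were compared with the fbp7-3 mutant in the same background, which is mutated in FBP7, a gene for an F-box protein, and no treatment separates the groups. F-box proteins choose the targets that SCF ubiquitin ligases modify. There were 3 samples of each genotype, and each of the 6 samples was hybridised to 1 ATH1 array. The labels give no nature for the fbp7-3 mutation and do not say whether the plants of the samples were grown separately, so p-values measure the spread between these samples only, which may be technical.

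The genes were chosen by symbol: those starting with PRA (then a digit or a dot), RAB, SYP, VAMP, EXO70, SEC, VPS or VTI (then a letter or digit), with or without AT before it, and without the plastid translocase genes. Among 22746 probe sets that are no controls, 13513 had 1 listed gene, and 32 of these, for 32 different genes, met the rule. They were 11 PRA1 genes, 1 RAB gene, 1 SYP gene, 9 SEC genes and 10 VPS genes. No VAMP, EXO70 or VTI symbol was among the single-gene probe sets, and AtSec20 was matched by ignoring case. The annotation listed no gene for 8730 of the 22746 probe sets, so a symbol missing here does not mean a gene missing from the array. A further 3 probe sets that pair a matching gene with another gene were left out, as were 4 single-gene probe sets whose symbol starts alike without meeting the rule. All 32 probe set names end in the plain suffix that the array uses for probe sets designed against 1 transcript, and none was removed for low signal.

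Cargo moves between plant organelles in vesicles, whose docking is set by Rab GTPases, tethering complexes and SNARE proteins. Rab GTPases mark a membrane when they carry GTP, exchange factors load that GTP, and PRA1 proteins are small membrane proteins that bind prenylated Rabs. The exocyst tethers secretory vesicles to the plasma membrane, SNAREs drive the fusion, and SM proteins (Sec1/Munc18) bind and regulate SNAREs. ESCRT complexes sort ubiquitinated membrane proteins into the inner vesicles of endosomes on their way to the vacuole. By these roles the 32 genes were 11 PRA1 genes, 2 for a Rab and a Rab activator, 4 for SNAREs and an SM protein, 6 for exocyst subunits and 9 for ESCRT subunits.

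None of the 32 genes passed the test between mutant and wild type. The test was limma over all 22746 probe sets on log2(signal + 16), at a Benjamini-Hochberg adjusted p under 0.05, where 75 probe sets (0.33%) passed. The smallest adjusted p among the 32 was 0.318, for VPS9B. At an unadjusted p under 0.05, 1 of the 32 was higher in the mutant, where 5.23% of all probe sets were, and none was lower, where 5.05% were. Groups did not overlap in 3 genes that were higher in the mutant (9.38%) and in 1 that was lower (3.13%), against 8.11% and 7.39% of all probe sets. These shares lie near or below the background. No gene of the 32 passed in any of the 16 alternative fits. In them 1 to 4 of the 32 had an unadjusted p under 0.05. The share of all probe sets at that p was not counted in those fits, so no excess can be read from these counts. The number of all probe sets passing was 34, 46 and 43 without wild type replicates 1, 2 and 3. It was 88, 20 and 31 without mutant replicates 1, 2 and 3.

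**Figure D1:**
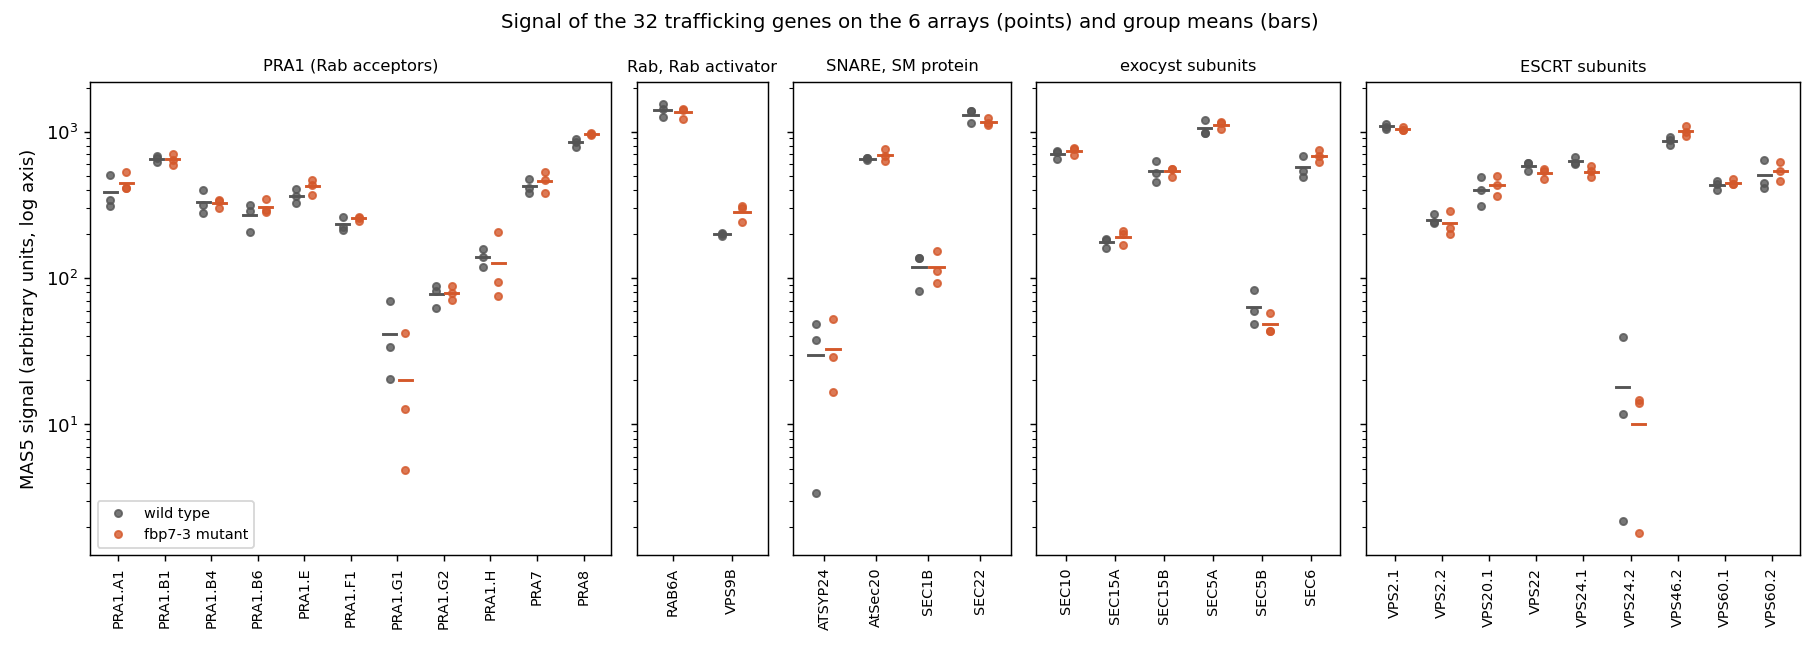
MAS5 signal (arbitrary units, log axis) of each of the 32 genes on the 3 wild type arrays (grey) and the 3 mutant arrays (orange), by role, with bars at the group means. The groups stand apart in VPS9B, PRA8, VPS46.2 and VPS24.1, and points scatter widely in PRA1.G1, ATSYP24 and VPS24.2.

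Most of the 32 changes were bounded closely. The 95% interval of the log2 change lay inside a 2-fold change in either direction for 29 of the 32 genes and inside a 1.5-fold change for 23 of them (71.9%), against 44.5% of all probe sets. Much of that gap goes with brightness: among probe sets with a mean signal above the median, the share was 82.5% over the array and 22 of 24 (91.7%) for these genes. The exceptions to the 2-fold bound were PRA1.G1, ATSYP24 and VPS24.2. These 3 had signals under the 25th percentile of the array, which lay between 39.2 and 49.7, on 4 or 5 of the 6 arrays. The median size of the change, without its sign, was 0.13 over the 32 genes and 0.16 over all probe sets. The median change was 0.06 over the 32 genes, with 20 above 0 and 12 below, and 0.0093 over all probe sets.

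**Figure D2:**
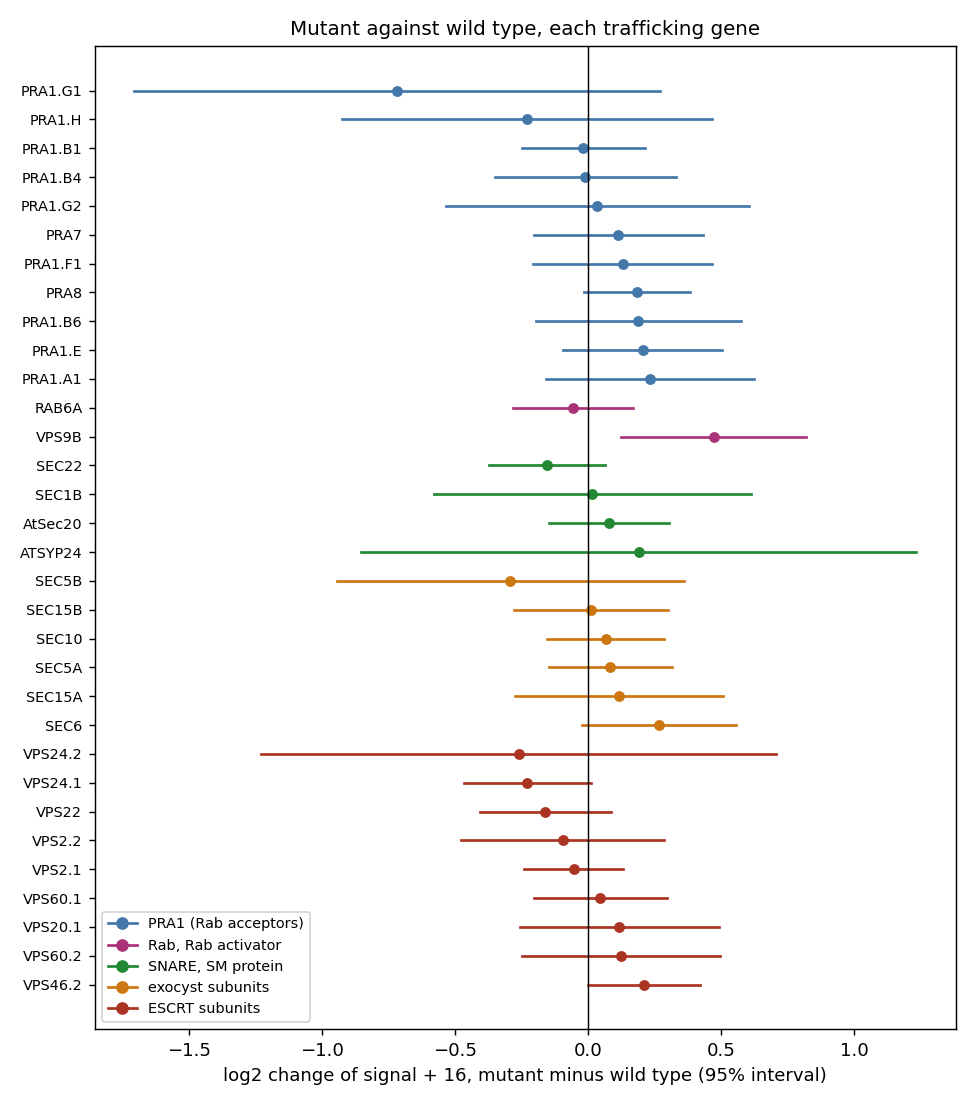
Log2 change of signal + 16, mutant minus wild type, for each of the 32 genes (points) with the 95% interval of the limma fit (lines), by role. The interval of VPS9B, 0.12 to 0.82, is the single one of the 32 that leaves out 0, and none of the 32 passed after adjustment over all probe sets.

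Of the Rab genes, RAB6A was the single RAB symbol that the annotation paired with a probe set of its own. RAB6A (AT2G44610, also RABH1B) encodes a Golgi Rab GTPase. Its signal was 1259, 1551 and 1422 in wild type replicates 1 to 3 and 1425, 1417 and 1224 in the mutant. The groups overlapped, and the log2 change was −0.06 ± 0.10 (SE), with an interval of −0.28 to 0.17 (limma adjusted p = 0.908).

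VPS9B (AT5G09320) had the smallest p of the 32. It is a relative of VPS9A, the exchange factor that loads GTP onto endosomal Rabs of the RAB5 group. Its signal was 193, 205 and 199.5 in the wild type and 300.0, 309 and 242 in the mutant. The lowest mutant signal was above the highest wild type signal, and the wild type arrays lay close together. Means were 199 ± 5.91 (SD, n = 3) and 284 ± 36.5 (n = 3), a ratio of 1.43. The log2 change was 0.47 ± 0.16 (limma adjusted p = 0.318), so VPS9B did not pass. Over the 16 alternative fits its change ran from 0.40 to 0.71, with adjusted p values from 0.21 to 0.728. The highest change came from the fit with a covariate for RNA quality, taken from the control probe sets.

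PRA1 genes were the largest family, with 11 members, of which 7 had a change above 0 and 4 below. Their median change was 0.11, and their changes ran from −0.72 to 0.23. In PRA8 (AT3G13720, also PRA1.F3) the signal was 895, 856 and 785 in the wild type and 944, 962 and 977 in the mutant. The groups did not overlap and the mutant arrays lay close together. The log2 change was 0.18 ± 0.09 (limma adjusted p = 0.53).

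The other members of the F subgroup, PRA1.F1 and PRA7 (also PRA1.F2), had changes of 0.13 ± 0.15 and 0.11 ± 0.14, and their groups overlapped. PRA1.A1, with 341, 504 and 313 in the wild type and 411, 410 and 528 in the mutant, had the largest change above 0 of the family, at 0.23 ± 0.18 (limma adjusted p = 0.714). Its wild type replicate 2 lay above mutant replicates 1 and 2. PRA1.E, with 362, 406 and 327 against 371, 431 and 469, was at 0.21 ± 0.14 (limma adjusted p = 0.662), and its groups overlapped as well.

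The B subgroup held the PRA1 changes nearest to 0. PRA1.B1 had signals of 619, 679 and 662 in the wild type and 709, 588 and 643 in the mutant, a change of −0.02 ± 0.11 with an interval of −0.25 to 0.21. PRA1.B4 was at −0.0098 ± 0.15, whereas PRA1.B6 was at 0.19 ± 0.18, and the intervals of these 3 genes overlap. Of the dimmer members, PRA1.G1 had signals of 33.8, 20.6 and 69.8 in the wild type and 12.8, 4.9 and 42.4 in the mutant. The groups overlapped, and its change of −0.72 ± 0.45 (limma adjusted p = 0.638) had an interval from −1.71 to 0.27. Over the alternative fits that change ran from −1.82, with the RNA quality covariate, to −0.33, with a pseudocount of 64. PRA1.G2 was at 0.03 ± 0.26. PRA1.H was at −0.23 ± 0.32, and its mutant replicate 3 signal was 208 against 75.5 and 94.2 in mutant replicates 1 and 2.

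SNARE and SM protein genes were 4 in number, with 3 changes above 0 and 1 below, a median of 0.05, and groups that overlapped in each. That median was −0.087 without wild type replicate 3 and 0.12 without mutant replicate 3, so its sign is not settled. SEC22 (AT1G11890) encodes an R-SNARE of traffic between the ER and the Golgi apparatus. Its signal was 1389, 1379 and 1148 in the wild type and 1148, 1244 and 1113 in the mutant. Wild type replicate 3 lay among the mutant arrays, and the change was −0.15 ± 0.10 (limma adjusted p = 0.651). AtSec20 (AT3G24315) is named after a yeast SNARE of transport from the Golgi apparatus to the ER. It was at 657, 662 and 646 in the wild type and 632, 767 and 686 in the mutant, a change of 0.08 ± 0.10. The syntaxin gene ATSYP24 (AT1G32270) had signals of 37.9, 48.5 and 3.4 in the wild type and 52.5, 16.7 and 28.7 in the mutant, so its change of 0.19 ± 0.47 is barely bounded, with an interval from −0.85 to 1.23. SEC1B, the SM protein gene, was at 0.02 ± 0.27.

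Exocyst genes had changes above 0 in 5 of 6 members, with a median of 0.08, and the groups overlapped in every one. SEC6 (AT1G71820) had signals of 492, 680 and 538 in the wild type and 622, 687 and 745 in the mutant. Wild type replicate 2 lay above mutant replicate 1, and the other 2 wild type arrays lay below all mutant arrays. Its change was 0.27 ± 0.13 (limma adjusted p = 0.531). It was 0.40 without wild type replicate 2 (limma adjusted p = 0.352) and 0.17 without wild type replicate 1 (0.773).

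The other bright exocyst genes lay near 0. SEC5A had signals of 1211, 978 and 976 in the wild type and 1162, 1143 and 1040 in the mutant, a change of 0.08 ± 0.11. SEC10 was at 0.07 ± 0.10 and SEC15B at 0.01 ± 0.13, and the intervals of these 3 genes lay inside a 1.5-fold change. SEC15A was at 0.12 ± 0.18. SEC5B, with signals of 48.2, 83.5 and 59.7 in the wild type and 58.2, 43.8 and 43.4 in the mutant, was at −0.29 ± 0.30.

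ESCRT genes were the largest group after PRA1, with 4 changes above 0 and 5 below and a median of −0.05. That median was 0.01 without mutant replicate 1, 0.0064 with the RNA quality covariate and −0.0041 without the dimmest 25% of probe sets, so its sign is not settled. VPS46.2 (AT1G73030, also CHMP1A), of the ESCRT-III type, had signals of 813, 879 and 914 in the wild type and 1089, 934 and 1000 in the mutant. Every mutant array lay above every wild type array, with a change of 0.21 ± 0.10 (limma adjusted p = 0.493). VPS24.1 (AT5G22950), a core ESCRT-III subunit, went the other way: 677, 600 and 608 in the wild type and 489, 579 and 536 in the mutant. Its groups did not overlap either, and the change was −0.23 ± 0.11 (limma adjusted p = 0.515). Neither gene passed.

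Within an array, a ratio of 2 signals does not depend on the scaling of that array. The log2 ratio of the plain signals of VPS46.2 and VPS24.1, with no added 16, was 0.26, 0.55 and 0.59 in the wild type and 1.15, 0.69 and 0.90 in the mutant. These ranges did not overlap. They could not have done so, because the groups of each gene were already apart, in opposite directions, so the ratio adds nothing to the 2 genes. This pair was also chosen after its values were seen, so no test is given. VPS22 (AT4G27040), an ESCRT-II subunit, was at 611, 611 and 535 in the wild type and 473, 557 and 538 in the mutant, a change of −0.16 ± 0.11 (limma adjusted p = 0.684).

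The remaining ESCRT-III genes overlapped between the groups. VPS2.1 was the most closely bounded of all 32 genes, with 1082, 1048 and 1136 in the wild type and 1082, 1025 and 1035 in the mutant, a change of −0.05 ± 0.08 and an interval from −0.24 to 0.13. VPS2.2 was at −0.10 ± 0.17, VPS20.1 at 0.12 ± 0.17, VPS60.1 at 0.05 ± 0.11 and VPS60.2 at 0.12 ± 0.17. VPS24.2, at signals of 1.8 to 39.8, was at −0.26 ± 0.44.

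Where exactly 2 members share a name stem, the log2 ratio of their signal + 16 within each array was compared between the groups. This was done for SEC5A and SEC5B, SEC15A and SEC15B, VPS2.1 and VPS2.2, VPS24.1 and VPS24.2, VPS60.1 and VPS60.2, and PRA1.G1 and PRA1.G2. The smallest two-sided exact permutation p of these 6 pairs was 0.2, for PRA1.G1 and PRA1.G2, or 0.9 after Benjamini-Hochberg adjustment over the 6 pairs, where 3 against 3 cannot give less than 0.1. The ratio of plain signals, an alternative added after the data were seen, gave the same p in each pair. For the 3 pairs without a dim partner, the mutant minus wild type difference in the log2 ratio of plain signals was 0.11 for SEC15A to SEC15B, 0.05 for VPS2.1 to VPS2.2 and −0.08 for VPS60.1 to VPS60.2. In the other 3 pairs 1 partner lay under the 25th percentile on at least 1 array, and the size of the difference depends on the added 16. It was 0.38 with it and 0.46 without it for SEC5A to SEC5B, 0.03 and 0.26 for VPS24.1 to VPS24.2, and −0.75 and −1.44 for PRA1.G1 to PRA1.G2.

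Between families, the median changes were 0.11 for PRA1, 0.07 for SEC and −0.0041 for VPS symbols. With 1 array left out, PRA1 ran from 0.05 (without wild type replicate 3) to 0.16 (without wild type replicate 1), SEC from 0.03 (without wild type replicate 3) to 0.09 (without wild type replicate 1) and VPS from −0.03 (without wild type replicate 3) to 0.04 (without mutant replicate 1). From each gene's log2 values its 6-array mean was subtracted, and the median over a family was taken on each array. PRA1 medians were −0.0090, 0.05 and −0.12 in wild type replicates 1 to 3 and 0.0019, −0.0025 and 0.09 in the mutant. SEC medians were 0.02, −0.0054 and −0.06 in the wild type and 0.0012, 0.08 and −0.06 in the mutant, and VPS medians −0.02, 0.06 and −0.03 against −0.08, 0.08 and −0.02. In each of these 3 families the groups overlapped. The SD within groups of these array medians was 0.07, 0.06 and 0.07 for PRA1, SEC and VPS. The differences between the families' medians were given no test.

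**Figure D3:**
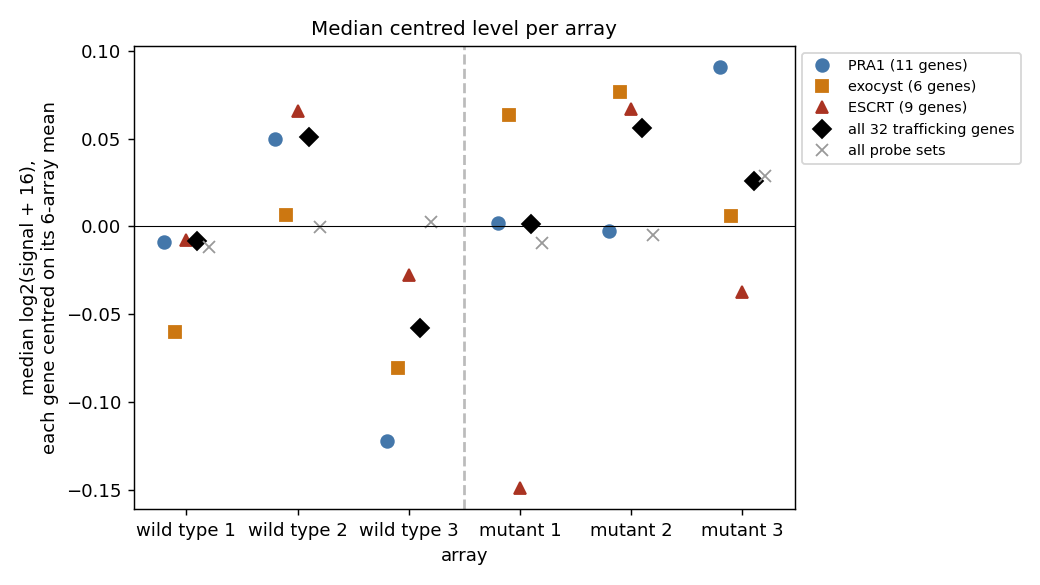
Median log2(signal + 16) of PRA1, exocyst and ESCRT genes, of all 32 genes and of all probe sets on each of the 6 arrays, after subtraction of each gene's 6-array mean. The arrays of the groups overlap in every series, with PRA1 lowest on wild type replicate 3 (−0.12) and ESCRT lowest on mutant replicate 1 (−0.15). The exocyst overlap is slight: the highest wild type median is 0.0066 (replicate 2) and the lowest mutant median 0.0058 (replicate 3). This difference was not tested.

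Other genes of the pathway were taken from a list of 83 loci for other SNAREs, coats, adaptors, small GTPases, sorting receptors and tethers. The annotation gave a single-gene probe set for 21 of them, in 22 probe sets. None of these passed over all probe sets. Their median change was −0.04, with 8 above 0 (36.4%, against 51.7% of all probe sets) and 14 below. Groups did not overlap in 1 of them that was higher in the mutant (4.55%) and in 2 that were lower (9.09%), against 8.11% and 7.39% of all probe sets. The R-SNARE gene YKT61 (AT5G58060) was nearest to the threshold, with 2140, 2131 and 2001 in the wild type and 2442, 2848 and 2914 in the mutant. Its groups did not overlap, and its change was 0.38 ± 0.09 (limma adjusted p = 0.133). Over the 16 alternative fits its adjusted p ran from 0.0696, without mutant replicate 1, to 0.876, with the RNA quality covariate.

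Among 13 probe sets for coats and adaptors, with no dynamin among them, 4 changes lay above 0 and 9 below. The share above 0 was 30.8%, against 51.7% of all probe sets and 48.1% of those with a mean signal above the median. AT1G79990 holds 2 of the 13, at −0.13 and 0.07, and AT1G60970 and AT2G34840 were dim. The clathrin light chain gene AT2G20760 was at 1754, 1960 and 1715 in the wild type and 1613, 1558 and 1182 in the mutant, a change of −0.33 ± 0.12 (limma adjusted p = 0.37), and its groups did not overlap. It was −0.19 without mutant replicate 3 and 0.03 with the RNA quality covariate (limma adjusted p values of 0.70 and 0.993). The COPI coat genes AT2G21390 and AT5G05010, for an alpha and a delta subunit, were at −0.18 ± 0.09 and −0.25 ± 0.13 (limma adjusted p values of 0.513 and 0.554). Groups did not overlap in AT2G21390 and overlapped in AT5G05010. Other bright coat genes lay on both sides of 0. AT1G62020 was at 0.05 ± 0.09, AT3G15980 at 0.14 ± 0.17 and AT1G52360 at 0.01 ± 0.16. AT1G30630 was at −0.0038 ± 0.09 and AT4G34450 at −0.07 ± 0.11. KEU, the SM protein gene for KEULE, which acts in cytokinesis, was at −0.0073 ± 0.09. ELC, which encodes a ubiquitin-binding ESCRT-I subunit, was at 0.25 ± 0.13, and the exocyst gene EXO84B at 0.06 ± 0.10.

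**Figure D4:**
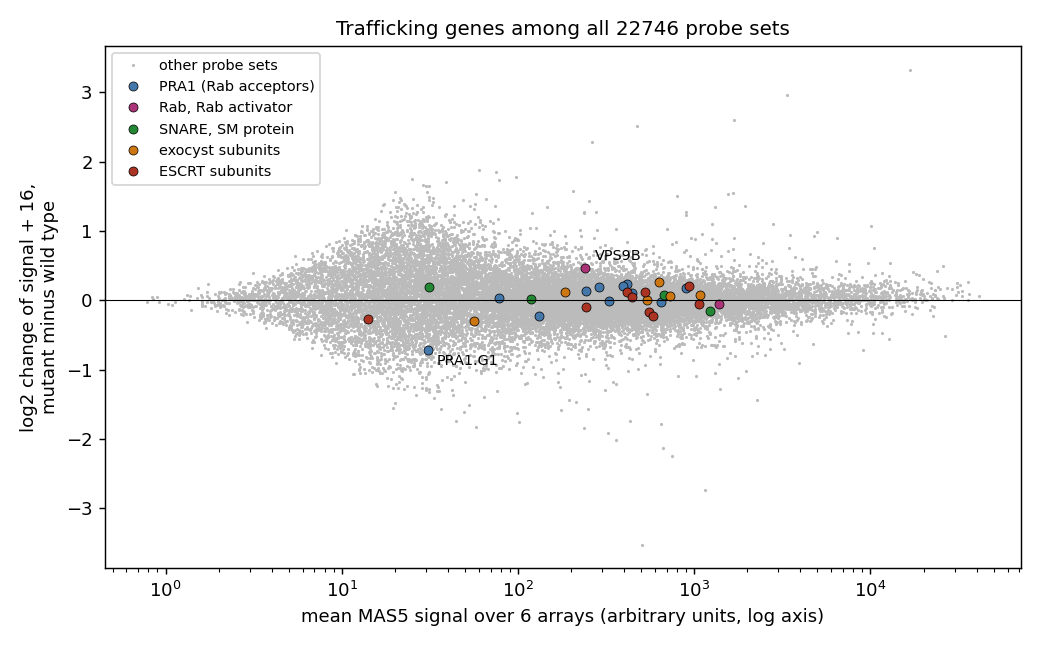
Log2 change of signal + 16, mutant minus wild type, against mean MAS5 signal over the 6 arrays (log axis) for all 22746 probe sets, with the 32 trafficking genes coloured by role. The coloured points lie within the cloud of other probe sets, with the labelled VPS9B at 0.47 and the dim PRA1.G1 at −0.72.

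Signals ranged from 0.1 to 46363.1 over the arrays, with array medians of 188.7 to 200.7. The annotation table paired no probe set with FBP7, so the level of the mutated gene was not analysed here. RNA quality moved with the groups: the index, a mean log2 ratio of 3′ to 5′ control signals, lay between 0.878 and 0.998 on wild type arrays and between 1.07 and 1.33 on mutant arrays. Its part in the changes above was not tested. With the index as a covariate, 13 of all probe sets passed and none of the 32 genes. As the index separated the groups, that fit cannot tell RNA quality and genotype apart. Of 8 green tissue loci, 1 had a single-gene probe set in the annotation. This was RCA, for Rubisco activase, which was bright in both groups, at 25714 ± 1714 and 26233 ± 1122. The 3 of 7 root hair loci measured had changes below 0, with a summed signal of 377 to 585 on wild type arrays and 304 to 388 on mutant arrays. AT3G49960 was at −0.75 ± 0.27 (limma adjusted p = 0.358), and its groups did not overlap. EXPA18 was at −0.30 ± 0.19 and EXPA7 at −0.44 ± 0.36, with overlapping groups, and none of the 3 passed. Of 9 loci listed as embryo and seed markers, 2 were measured, with a summed signal of 95.1 to 446 on wild type arrays and 64.3 to 217 on mutant arrays. These were ICL, for isocitrate lyase, at −1.05 ± 0.47, and the dimmer PAP85, a seed storage protein gene, at 0.79 ± 0.48, with overlapping groups in both (limma adjusted p values of 0.478 and 0.623). ICL gave most of the sum on every array, with 220, 405 and 88.5 in the wild type, so the sum mainly follows ICL and not PAP85. In whole seedlings, fewer cells of a type and less RNA per cell cannot be told apart, and the part of these markers in the changes above was not tested.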

How the data were processed

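Total RNA of 6 seedling samples was hybridised to ATH1 arrays, 1 per sample. The authors deposited signal intensities made with MAS5, as the submitters' processing notes say; for MAS5, no version or setting is given in the sources used here, and no detection calls were used. On each array the mean after leaving out the lowest and highest 2% was 500, as a global scaling of each array gives. Genes were named from the annotation table of the platform, updated to RefSeq symbols of assembly TAIR10.1 (13436 of 13513 single-gene probe sets found). The array's build is not given, so no coordinates are printed.

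The deposited intensities of 22746 probe sets were taken to log2(signal + 16), leaving out 64 controls, with no filter on low signal and no further normalization. Groups came from the sample titles. The fit across them used limma 3.58.1 under R 4.3.3 (lmFit, eBayes with an intensity trend, group as the single term, Benjamini-Hochberg over all probe sets). SEs rest on moderated variances with 4 residual and 7.08 prior degrees of freedom. Changes on this scale understate those of dim genes, and the number of arrays limits the precision. Ratios of paired genes were put to two-sided exact permutation tests (scipy 1.17.1). Figures were drawn with matplotlib 3.10.9.

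Genes described singly are all 32 members. The rule for naming took those past the threshold, the 10 smallest p values, the highest signal and the largest changes of each family, and the 4 smallest p values of the other pathway genes. KEU, ELC, EXO84B, ICL, PAP85, the root hair genes and the further coat genes were chosen after their values were seen. The members and lists were chosen with earlier results of these data known. No sequence is shown, as none was among the files used. Replicate numbers were not taken as pairs in the main fit.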

Additional observations from a re-analysis of the deposited data

Results flagged for a closer look

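Control probe sets were no part of the comparison of genes. Their RNA quality index had a mutant mean of 1.17 and a wild type mean of 0.955, and every mutant array lay above every wild type array. Of its 6 ratios, 3 separated the groups in this way.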

How the results depend on the processing

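None of the 32 trafficking genes and none of the other pathway genes passed in any of the 16 alternative fits, nor did any of the 32 with the platform's own symbols, which matched the same number of genes. Of all probe sets, 75 passed; the count was 180 without the dimmest 25%, 113 with robust eBayes, 13 with the RNA quality covariate and 7 without the intensity trend. It ran from 20 to 88 with 1 array left out. Without the dimmest 25%, 29 of the 32 genes were tested. In these fits 0 to 6 of the 32 had a change of the other sign. The change of RAB6A, the single RAB gene, was 0.17 with the RNA quality covariate. With 1 array left out, the exocyst median ran from 0.022 to 0.11 and the SNARE and SM protein median from −0.087 to 0.12. The VPS, ESCRT and SNARE and SM protein medians changed sign in some fits. The causes were not tested. With the replicate number as a block, 85 probe sets and none of the 32 genes passed. Deviations of same-numbered arrays from their group means correlated at −0.0030, −0.0021 and −0.03. These values show no pairing by number, but they cannot tell whether same-numbered samples were grown or processed together. Signal limits PRA1.G1, ATSYP24 and VPS24.2, whose values lay near background.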
